A study of Mus musculus with 24 samples.

Results

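The comparison set 10 arrays of 5 mouse epiblast stem cell (EpiSC) lines against 4 arrays of 2 mouse embryonic stem cell (mESC) lines kept without 2i, the pair of inhibitors of Mek and Gsk3 that holds mESCs in a ground state. These are 14 of the 24 arrays and 7 of the 12 groups of the series, chosen by the lines named in the sample titles, and no measured value was used to choose them. EpiSC lines Wt1 and 129C1 had been established by the protocol first used for such lines, and 129Ba1, 129Ba2 and BNa17 with an inhibitor of Wnt signalling. The mESC lines were J1 and R1. All of these lines carry no stated mutation or treatment, were kept undifferentiated on feeder cells and were separated from them before total RNA was taken. The labels give the culture media for EpiSC lines as conventional or with a Wnt inhibitor, without saying which line had which. Each line was measured on 2 single-colour arrays, and the labels do not say whether these came from separate cultures, so each line entered the tests as 1 mean.

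EpiSCs are taken from the epiblast after implantation and are called primed: they depend on Activin and Fgf, and respond readily to signals for differentiation. mESCs come from the blastocyst before implantation and are called naive: they depend on LIF, which acts through Jak and Stat3, and hold a set of transcription factors such as Esrrb, Klf4 and Zfp42 that the epiblast loses at implantation. Between these states, the embryo adds DNA methylation over much of the genome and shuts off genes of the germline, which return only in germ cells.

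A level here is the log2 of the processed signal relative to the 75th percentile of the same array, which stood at a signal of 69.3 to 215 on the EpiSC arrays and 142 to 175 on the mESC arrays. BNa17 replicate 1 was the dimmest array, with 36.7% of probes well above background. Levels of different genes come from different probes and are not set against each other. All EpiSC arrays were scanned on 1 day and all mESC arrays on another, and no slide held both kinds of line, so kind of line and slide or scan cannot be told apart in any value below. In cultures measured in bulk, fewer cells in a state and less RNA per cell cannot be told apart either. The E7.5 embryonic ectoderm arrays, used further on, lay on the slide of J1. A gene was called where limma's adjusted p was below 0.05 and the difference at least 2-fold, and every difference is given as EpiSC minus mESC on the log2 scale with its standard error. Where one kind of line had no array well above background, the fold is a lower bound, taken against the lowest signal that was.

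The 2 kinds of line differed at 3619 of 14436 genes tested (25.1%), of which 1860 (12.9%) were higher and 1759 (12.2%) lower in EpiSCs. Normexp background correction called 754 higher and 1215 lower, and scaling to the array median called 1345 higher and 2389 lower, so the balance of directions depends on the scaling. Scaling to the median moved the median difference of all genes tested to -0.22, against -0.01 in the scaling used here. Among genes well above background on all 14 arrays the difference ran from -8.01 for Rps4l to 5.51 for Slc39a8. Of the called genes, 200 (1.39% of those tested) had no EpiSC array and all mESC arrays well above background, and 132 (0.914%) had no mESC array and all EpiSC arrays so. Fewer genes were called without line J1 and without line R1. In these fits 1 mESC line stands for its kind, and the cause of the lower counts was not tested.

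**Figure D1:**
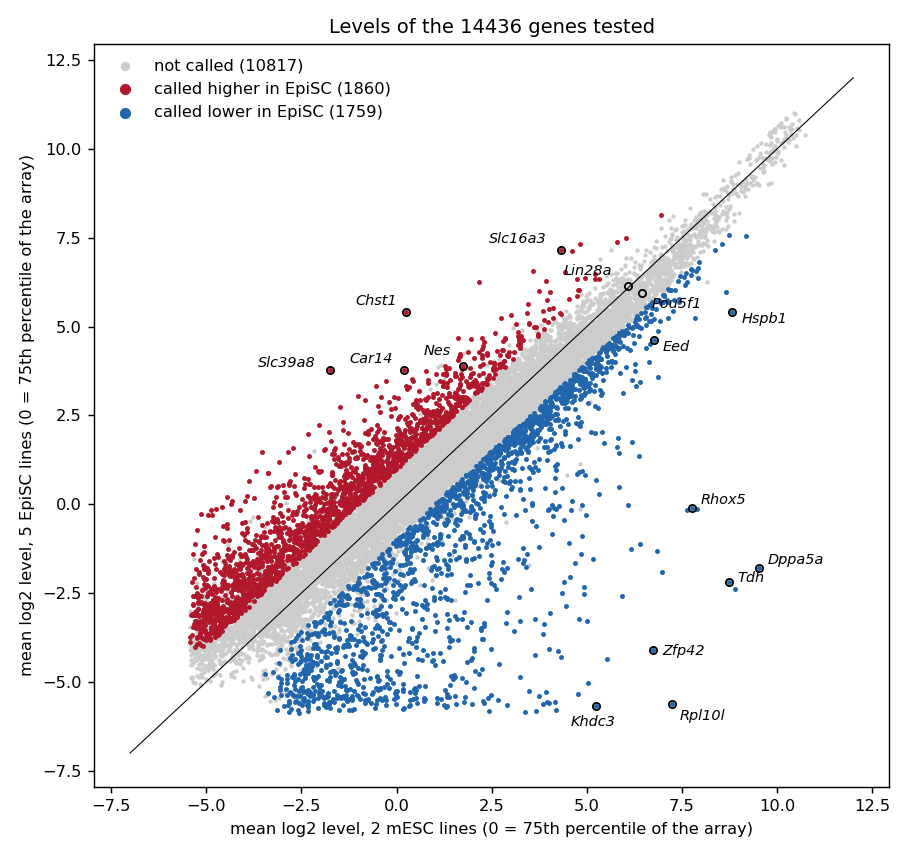
Mean log2 level of each gene tested in the 5 EpiSC lines (vertical axis) and in the 2 mESC lines (horizontal axis), where 0 is the 75th percentile of an array and the line marks equal levels. The 1860 genes called higher in EpiSCs are red and the 1759 called lower are blue; Rpl10l and Khdc3 lie at the lower right with no EpiSC array well above background, and Chst1 and Slc39a8 lie well above the line.

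Of the 4 markers given with the comparison, Zfp42 and Esrrb were lower in EpiSCs and Slc39a8 and Car14 higher. Slc39a8 and Car14 were known from earlier results of these data, so their direction is no separate support. Zfp42, a zinc finger protein also known as Rex1 and a marker of naive cells, had levels of -6.21 to -0.38, with a median of -4.20, on the 10 EpiSC arrays, against 6.93 and 6.68 in J1 and 6.93 and 6.44 in R1. The groups did not overlap, and 2 of 10 EpiSC arrays, both of 129Ba2, were well above background. Levels of Esrrb, an orphan nuclear receptor that helps hold the naive state, were -3.12 to -0.70, with a median of -2.08, on the 10 EpiSC arrays, against 6.94 and 6.80 in J1 and 7.15 and 7.01 in R1. Again every EpiSC array was below every mESC array. On the other side, Slc39a8, which carries zinc and manganese into the cell, stood at 2.29 to 4.43, with a median of 4.03, on the 10 EpiSC arrays, against -0.76 and -1.18 in J1 and -2.25 and -2.80 in R1. The carbonic anhydrase gene Car14, which encodes a membrane enzyme that hydrates carbon dioxide, stood at 3.02 to 4.37, with a median of 3.94, on the 10 EpiSC arrays, against 0.01 and 0.24 in J1 and 0.07 and 0.44 in R1. Neither gene overlapped between the groups, and Wt1 had the lowest EpiSC level of both. Arrays of the groups did not overlap for 36.9% of all genes tested.

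**Figure D2:**
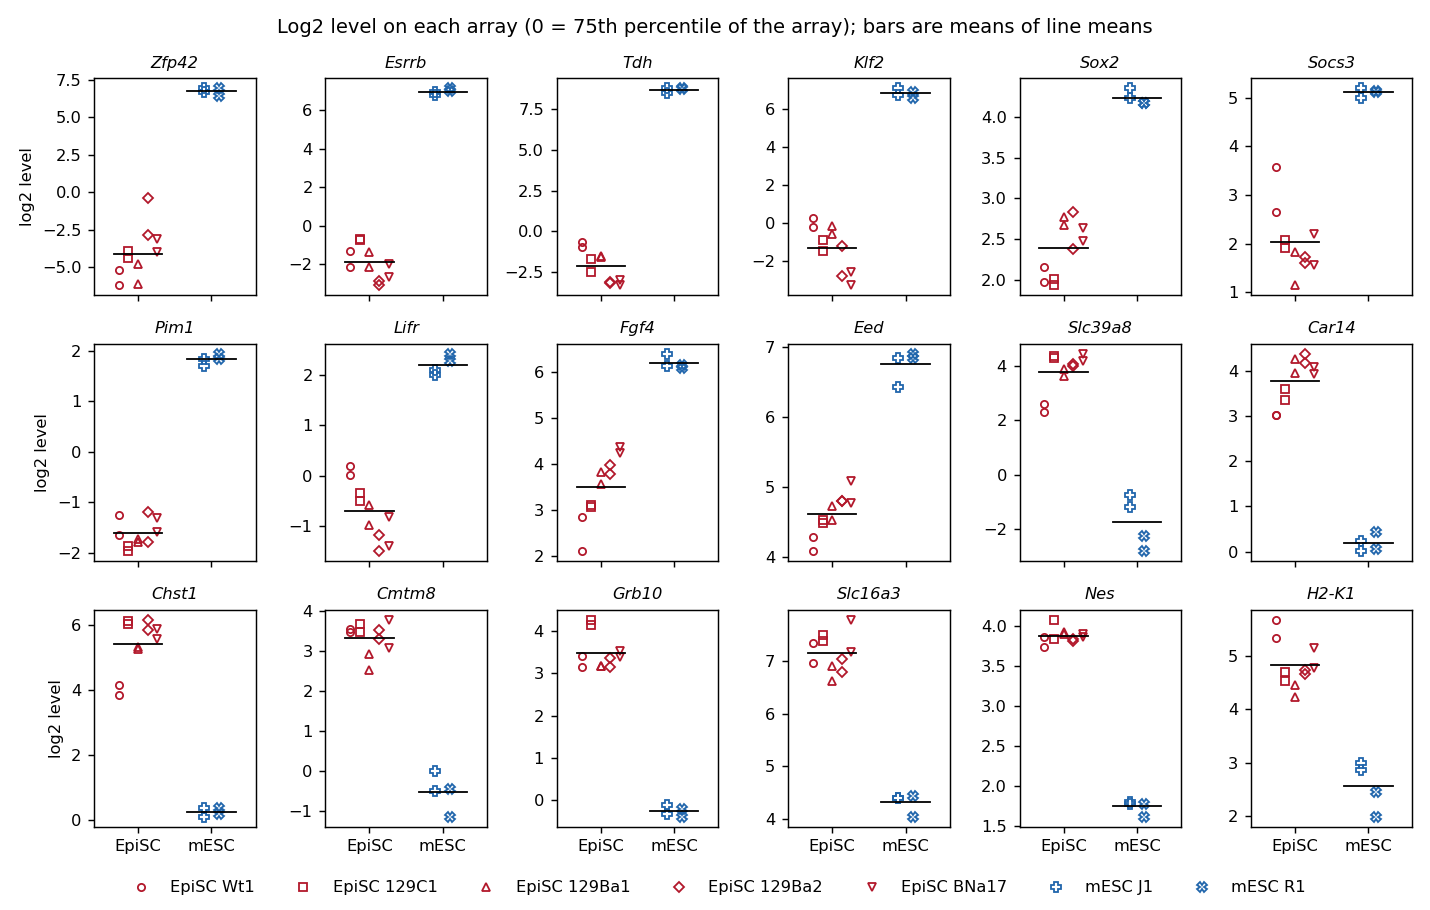
Log2 level of 18 genes on each of the 10 EpiSC arrays (red, left) and 4 mESC arrays (blue, right), with a marker shape for each line and a bar at the mean of the line means. In each of the 18 panels every EpiSC array lies on one side of every mESC array, as was the case for 36.9% of all genes tested. The genes shown were picked from those named in the text.

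Of 26 naive pluripotency genes tested, 20 were lower in EpiSCs and the other 6 did not pass, against 12.2% lower over all genes, with a median difference of -5.75 against -0.01 over all genes. Tdh, threonine dehydrogenase, which mouse embryonic stem cells use to feed one-carbon metabolism, was at -3.35 to -0.68, with a median of -2.13, on the 10 EpiSC arrays, against 8.79 and 8.53 in J1 and 8.81 and 8.78 in R1. It fell by 10.91 on the log2 scale (SE 0.65, adjusted p = 5.38e-05) with no overlap of arrays. The Krüppel-like factors Klf2, Klf4 and Klf5 differed by -8.14 ± 0.76, -4.90 ± 0.52 and -4.33 ± 0.51 (adjusted p = 0.000383, 0.000683 and 0.00103). The transcription factors Tfcp2l1, Nr0b1 and Tbx3 differed by -7.52 ± 0.64, -7.31 ± 0.92 and -6.60 ± 0.69. For these 3 genes 5, 7 and 8 of the 10 EpiSC arrays were well above background. With normexp background correction the median difference of the list was -3.71, that of Tdh -9.18 and that of Zfp42 -7.83.

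Among general pluripotency genes the fall was uneven. Of 20 tested, 9 were lower, 1 higher and 10 did not pass (median -0.92), against 12.2% lower over all genes. Fewer were lower without R1. The higher call was lost without any 1 of 129Ba1, 129Ba2, BNa17, J1 or R1. The genes of this list named next were all lower ones. Dppa4 and Dppa2, partner proteins that keep the promoters of developmental genes open, were lower, with differences of -9.20 ± 0.50 and -8.62 ± 0.73 (adjusted p = 3.67e-05 and 0.000241). Levels of Dppa4 were -6.12 to -2.03, with a median of -5.69, on the 10 EpiSC arrays, against 3.94 and 3.81 in J1 and 3.95 and 3.96 in R1. Only 1 EpiSC array was well above background for it, so the size of its fall rests on levels at background (normexp gave -5.14). The mean level in embryos was 3.36 at E5.5, -0.45 at E6.5 and -5.38 at E7.5. Zfp296, a zinc finger factor, differed by -3.91 ± 0.27 (adjusted p = 9.06e-05). Sox2, the partner of Pou5f1 on many enhancers, was at 1.93 to 2.83, with a median of 2.43, on the 10 EpiSC arrays, against 4.35 and 4.24 in J1 and 4.17 and 4.18 in R1. The 2 original-protocol lines, at 2.07 and 1.97, were below the 3 others, at 2.55 to 2.72, but the kinds of EpiSC line were not called apart (adjusted p = 0.1).

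Genes of the germline were lower as a group. Of 28 tested from a list of germline genes known to be silenced by promoter methylation in somatic cells, 23 were called lower and 1 higher (median -5.86), against 12.2% lower over all genes. The median rests partly on levels at background and was -2.21 with normexp background correction. Of the lower ones, 14 had no EpiSC array well above background. These 14 entered the test only through mESC arrays, so the filter partly sets the lower count. The array held 32 genes of the list, of which 28 were tested. The promoter windows of 3 of the lower genes are shown for the motifs they hold. They come from RefSeq (build GRCm38.p6), each running from 250 bases before to 50 bases after the annotated start of the gene, 5′ to 3′ on the strand of the gene. Capitals mark CACGTG, the E-box bound by Mga and Max, and GCGGGAA on either strand, a site form of E2f factors such as E2f6. Both factors belong to a variant Polycomb complex known to repress germline genes.
Sycp3 (chr10:88459337-88459636, + strand): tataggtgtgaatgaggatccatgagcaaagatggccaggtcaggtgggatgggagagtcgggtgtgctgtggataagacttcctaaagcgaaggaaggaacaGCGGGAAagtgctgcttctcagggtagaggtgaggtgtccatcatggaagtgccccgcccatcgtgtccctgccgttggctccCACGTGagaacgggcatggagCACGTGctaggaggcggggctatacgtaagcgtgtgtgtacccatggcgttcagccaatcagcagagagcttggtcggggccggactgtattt
Ddx4 (chr13:112652261-112652560, - strand): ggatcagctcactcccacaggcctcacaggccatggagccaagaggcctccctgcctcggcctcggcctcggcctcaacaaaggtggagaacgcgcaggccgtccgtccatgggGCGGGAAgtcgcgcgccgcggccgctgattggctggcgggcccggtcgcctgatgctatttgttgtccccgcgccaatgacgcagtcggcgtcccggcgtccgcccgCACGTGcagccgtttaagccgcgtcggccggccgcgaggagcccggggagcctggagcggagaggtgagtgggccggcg
Mael (chr1:166238695-166238994, - strand): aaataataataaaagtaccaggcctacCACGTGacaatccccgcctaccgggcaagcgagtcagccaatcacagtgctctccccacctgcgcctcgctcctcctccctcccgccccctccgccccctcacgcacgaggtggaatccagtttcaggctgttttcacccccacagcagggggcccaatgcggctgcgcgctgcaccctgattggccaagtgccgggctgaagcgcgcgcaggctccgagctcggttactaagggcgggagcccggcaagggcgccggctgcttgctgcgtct
The Sycp3 window holds 3 matches, that of Ddx4 2 and that of Mael 1, and they hold 15, 38 and 24 CpG dinucleotides. Of the 23 lower germline genes, 16 had 1 window in the table. Among these, 6 held CACGTG and 6 held GCGGGAA (37.5% each), against 9.97% and 8.28% of the 9190 tested genes with 1 window. Letters were searched on both strands, and the 2 motifs can share no more than an end base. The other motifs searched were ATGCAAAT (octamer), GGATTA (Otx2), GGGNGTGG (Klf factors), TTCCNGGAA (Stat factors) and TCAAGGTCA (Esrrb). They were in 0%, 6.25%, 18.8%, 0% and 0% of the germline windows, against 1.56%, 5.92%, 23.4%, 1.29% and 0.239% of all. A match is a description of these windows only, and the printed genes were picked for their matches after the motifs had been counted, and Sycp3 also after its values were seen.

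Sycp3, a protein of the axis of meiotic chromosomes, had levels of -6.14 to -4.47, with a median of -5.19, on the 10 EpiSC arrays, against 1.21 and 0.79 in J1 and 1.79 and 1.35 in R1. No EpiSC array was well above background and Sycp3 was at least 28.1-fold lower (adjusted p = 1.93e-05). Ddx4, an RNA helicase of germ cells, was at least 17.4-fold lower, and Mael, which guards germ cells against transposons, at least 56.9-fold lower. The largest bound was that of Rpl10l, a retrogene copy of a ribosomal protein gene used in the testis. Its levels were -6.13 to -4.24, with a median of -5.74, on the 10 EpiSC arrays, against 7.44 and 7.12 in J1 and 7.27 and 7.15 in R1. No EpiSC array was well above background, and Rpl10l was at least 1750-fold lower (adjusted p = 2.16e-06). Rhox6, an X-linked homeobox gene, Stra8, which starts meiosis, and Dazl, an RNA-binding protein of germ cells, were at least 153-, 62.4- and 6.87-fold lower. Tuba3a, a tubulin of the testis, differed by -8.29 ± 0.29 with 5 EpiSC arrays well above background.

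Embryonic tissue showed the germline genes at intermediate levels that were lower at each later stage, unlike the naive genes. The 23 germline genes called lower had median levels of -5.61 to -4.79 in the EpiSC lines, against 1.75 in J1 and 1.91 in R1. In epiblast the median was -0.87 at E5.5 and -2.96 at E6.5, and in embryonic ectoderm it was -4.30 at E7.5. Counted by gene, 5, 14 and 21 of the 23 lay nearer to the EpiSC mean than to the mESC mean at E5.5, E6.5 and E7.5. For the 20 naive genes these counts were 17, 18 and 19, so most were on the EpiSC side at E5.5 already. Over all genes called lower 62.5%, 73.1% and 81.6% lay nearer to the EpiSC mean at these stages. Rpl10l itself averaged 4.02 at E5.5, 1.56 at E6.5 and -5.41 at E7.5, and Dppa5a, a naive gene that differed by -11.31 ± 0.91, averaged 7.71 at E5.5, 4.71 at E6.5 and 0.81 at E7.5. In J1 with 2i no gene of either set lay nearer to the EpiSC mean. Embryo arrays were on other slides than the EpiSC arrays, E7.5 on that of J1. Visceral endoderm markers also differed between the stages, as given below, and the part of other tissue in these levels was not tested.

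**Figure D3:**
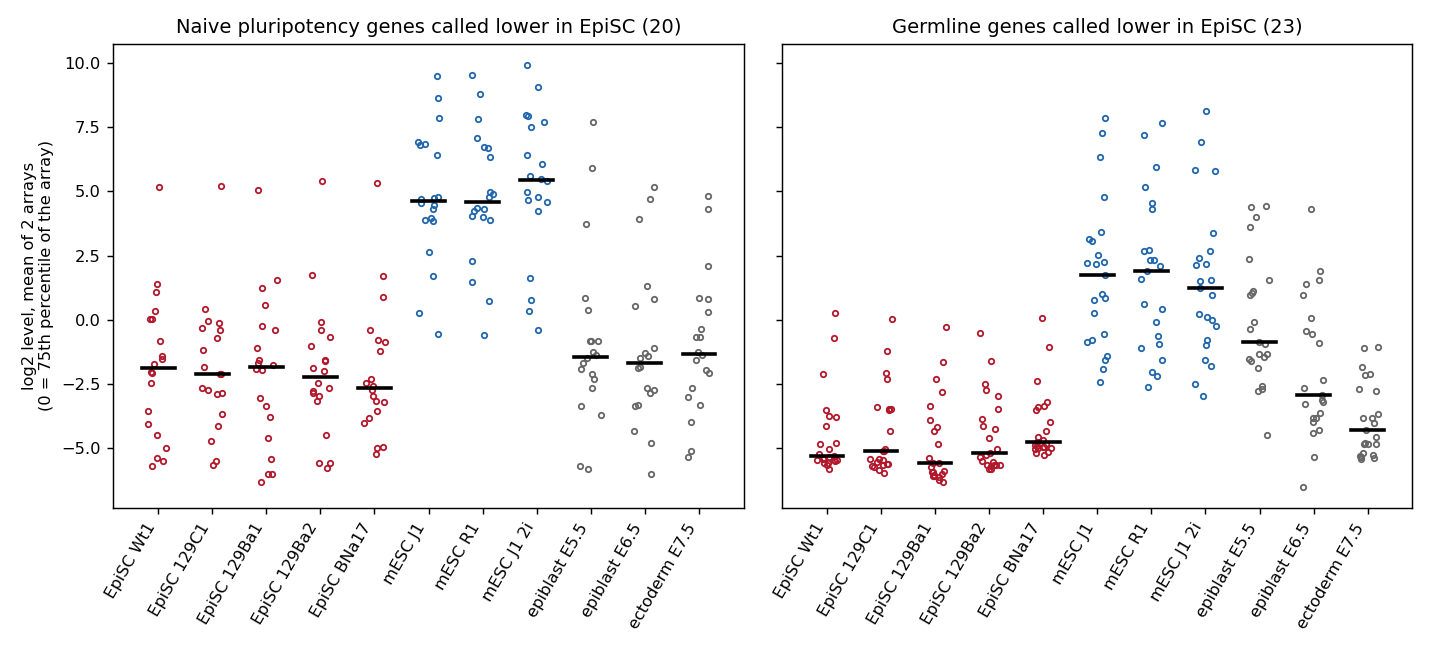
Log2 level (mean of 2 arrays, 0 is the 75th percentile of an array) of each naive gene (left panel, 20 genes) and each germline gene (right panel, 23 genes) called lower in EpiSCs, in the 5 EpiSC lines (red), the mESC groups (blue) and embryonic tissue (grey), with bars at the medians. The germline median was -0.87 at E5.5, -2.96 at E6.5 and -4.30 at E7.5, while the naive median was already -1.45 at E5.5.

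Genes of 2 other early programmes were also lower. Of 21 genes of the two-cell-like state on the array, a rare state of mESC cultures, 11 were tested. Among these 6 were lower and 5 did not pass, against 12.2% lower over all genes. For 5 of the lower ones no EpiSC array was well above background. They entered the test only through mESC arrays, so the filter partly sets this count. Zscan4f, Zscan4c and Zscan4a, members of a cluster that maintains telomeres, were at least 14.7-, 9.58- and 9.16-fold lower (adjusted p = 1.93e-05, 9.53e-06 and 2.61e-05), and since their sequences are near-identical their probes may share signal. Of 13 markers of primordial germ cells, 10 were lower and 3 did not pass, against the same 12.2% over all genes. Prdm14, a regulator shared by germ cell precursors and naive cells, was at least 45.9-fold lower, Dppa3 differed by -7.20 ± 0.63, the RNA-binding protein Dnd1 by -4.70 ± 0.25 and Nanos3 by -1.92 ± 0.28. Ddx4, Dazl, Prdm14 and Dppa3 stand in other lists above as well, so these counts are not separate.

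Other large bounds fell outside these lists. Khdc3, part of a complex of the oocyte cortex, was at least 435-fold lower, with levels of -6.39 to -4.43, with a median of -5.81, on the 10 EpiSC arrays, against 4.93 and 4.62 in J1 and 5.65 and 5.75 in R1. Fthl17f, a ferritin-like gene of the X chromosome, was at least 375-fold lower. Rbmxl2, a testis RNA-binding protein, and Morc1, which represses transposons in male germ cells, were at least 212- and 207-fold lower. Khdc3 differed from the others in embryos, where it was at background throughout (-5.49 at E5.5, -6.49 at E6.5 and -5.56 at E7.5), while Fthl17f averaged 3.13 at E5.5, 0.66 at E6.5 and -4.15 at E7.5. Genes well above background on all 14 arrays also fell far: Rps4l, an autosomal copy of a ribosomal protein gene, differed by -8.01 ± 0.66, and Hsd17b14, a steroid dehydrogenase, by -6.32 ± 0.22 (adjusted p = 0.000219 and 5.09e-06). Rps4l was high in embryos, at 7.16 at E5.5, 6.57 at E6.5 and 5.36 at E7.5, against -0.12 on average in EpiSCs and 7.88 in mESCs.

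The promoter windows of the genes without signal in EpiSCs held few CpGs. The 145 of 200 such genes with 1 window had a median of 8 CpGs in it, against 17 for all genes called lower, 19 for those called higher and 20 for all tested. Germline genes called lower had a median of 16. For the naive and primed markers the windows of Zfp42 and Car14 are shown because these genes are among the markers given with the comparison. Capitals mark the octamer ATGCAAAT, bound by Pou5f1, in either orientation in Zfp42, and GGATTA, the core bound by Otx2, in either orientation in Car14.
Zfp42 (chr8:43306960-43307259, - strand): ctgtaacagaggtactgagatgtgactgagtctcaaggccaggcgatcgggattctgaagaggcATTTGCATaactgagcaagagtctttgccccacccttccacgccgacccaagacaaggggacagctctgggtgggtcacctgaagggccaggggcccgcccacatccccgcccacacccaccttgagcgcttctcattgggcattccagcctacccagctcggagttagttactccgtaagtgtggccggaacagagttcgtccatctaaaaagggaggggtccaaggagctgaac
Car14 (chr3:95904636-95904935, - strand): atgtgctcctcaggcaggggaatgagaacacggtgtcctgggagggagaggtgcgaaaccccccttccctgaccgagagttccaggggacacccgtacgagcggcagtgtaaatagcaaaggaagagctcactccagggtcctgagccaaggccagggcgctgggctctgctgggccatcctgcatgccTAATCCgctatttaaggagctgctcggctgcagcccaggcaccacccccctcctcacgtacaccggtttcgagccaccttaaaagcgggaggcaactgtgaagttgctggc
The octamer was in 1.56% of all windows and in 2.19% of those of genes called lower, and GGATTA was in 5.92% of all windows and 4.85% of those of genes called higher. These shares are near the background, so the motifs describe the printed windows and not the sets.

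Of 20 regulators of DNA methylation, 4 were lower and 1 higher, a share near the 25.1% of all genes, and without J1 2 were lower. Dnmt3l, the catalytically inactive partner of the de novo methyltransferases, had levels of -3.63 to -1.49, with a median of -2.60, on the 10 EpiSC arrays, against 6.16 and 6.02 in J1 and 5.86 and 5.66 in R1 (adjusted p = 2.49e-05). Its level in embryos was 4.72 at E5.5, 1.87 at E6.5 and -0.90 at E7.5, above every EpiSC line mean at each stage. Dnmt3a, a de novo methyltransferase, was higher in EpiSCs (1.64 ± 0.32, adjusted p = 0.00708), a call that was lost without R1 (adjusted p = 0.0697). Tet2, a dioxygenase that starts the removal of methylation, was lower (-3.12 ± 0.34), and Tet1 was too (-1.87 ± 0.33), without J1 at an adjusted p of 0.0554.

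Of 37 genes in the list of Polycomb genes and histone modifiers, 10 were lower and 5 higher (40.5% called, against 25.1% of all genes). The lower ones include Dppa2, named above with the general pluripotency genes, so the counts of these lists are not separate. The higher count was 2 without BNa17 replicate 2, 2 without J1 and 1 without R1. Eed, a core subunit of Polycomb complex 2, was at 4.09 to 5.09, with a median of 4.63, on the 10 EpiSC arrays, against 6.85 and 6.43 in J1 and 6.85 and 6.91 in R1, and differed by -2.15 ± 0.23 (adjusted p = 0.00072). Mtf2, an accessory subunit that guides this complex to CpG islands, and Kdm3a, a histone H3 lysine 9 demethylase, differed by -1.70 ± 0.24 and -2.51 ± 0.26. For all of these the arrays of the 2 kinds of line did not overlap, as was the case for 36.9% of all genes tested.

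Of 18 genes of the LIF and Stat3 pathway, which holds mESCs in self-renewal, 9 were lower and 9 did not pass (median -1.40). Over all genes 12.2% were lower. At the receptor, Lifr was at -1.49 to 0.20, with a median of -0.69, on the 10 EpiSC arrays, against 2.00 and 2.09 in J1 and 2.41 and 2.27 in R1, a difference of -2.89 ± 0.38 (adjusted p = 0.00165). Among the kinases and their targets, Tyk2 differed by -1.91 ± 0.23, the target kinases Pim1 and Pim3 by -3.43 ± 0.19 and -2.52 ± 0.32, and the feedback inhibitor Socs3 by -3.09 ± 0.42. Socs3 stood at 1.14 to 3.58, with a median of 1.87, on the 10 EpiSC arrays, against 5.20 and 4.99 in J1 and 5.12 and 5.14 in R1, with the 2 highest EpiSC arrays both from Wt1. Pim1 and Socs3 are known targets of Stat3. Stat3 itself was at a mean of 2.34 in EpiSCs and 3.76 in mESCs and did not pass (adjusted p = 0.0594), and it did without Wt1 (adjusted p = 0.0187). Jak1 was above mESCs by 0.70 ± 0.19, under the 2-fold minimum (adjusted p = 0.0272).

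In the Fgf and Erk list 6 of 31 genes were lower and 3 higher, but without J1 the counts were 3 and 1 and without R1 2 and 1. Called genes made up 29% of this list, near the 25.1% of all genes. The ligands went in different directions. Fgf4, which mESCs secrete, was at 2.11 to 4.38, with a median of 3.67, on the 10 EpiSC arrays, against 6.40 and 6.14 in J1 and 6.09 and 6.16 in R1. Each Wnt inhibitor line was above both original-protocol lines, and all were below the mESC arrays (difference -2.71 ± 0.47, adjusted p = 0.00467). Fgf15 was higher by 2.34 ± 0.39 (adjusted p = 0.00428), and 129C1, at 1.00, lay below the other 4 EpiSC lines, at 2.03 to 2.41. Fgf5, the classic marker of primed epiblast, was higher by 2.33 ± 0.59 but not past the threshold without J1 or R1 (adjusted p = 0.0609 and 0.156). Among the targets of the pathway the Ets factor Etv5 was lower (-1.53 ± 0.22, adjusted p = 0.00248).

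Nodal and Activin signalling, on which EpiSCs depend, had 5 of 25 genes higher and 2 lower, a share near the 25.1% of all genes. Without R1 3 were higher and 1 lower, and without J1 1 was lower. The convertases that cut Nodal to its active form moved oppositely, with Furin higher (1.82 ± 0.20) and Pcsk6 lower (-3.03 ± 0.43), at adjusted p = 0.000797 and 0.00225. Lefty1, a feedback inhibitor and target of Nodal, was at 5.06 to 6.84, with a median of 5.93, on the 10 EpiSC arrays, against 3.48 and 4.01 in J1 and 3.83 and 3.68 in R1. Embryos had -0.92 at E5.5, 0.72 at E6.5 and -5.09 at E7.5, below both kinds of line.

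Bmp4, the ligand that acts with LIF on mESCs, was lower in EpiSCs, at 0.17 to 2.07, with a median of 0.47, on the 10 EpiSC arrays, against 4.11 and 3.72 in J1 and 4.42 and 4.41 in R1 (difference -3.41 ± 0.47, adjusted p = 0.00193). The 2 arrays of Wt1, at 2.07 and 1.87, stood apart from the other EpiSC arrays. The list of Bmp signalling as a whole had 4 of 25 lower and 4 higher, and 1 and 2 without R1, 2 and 1 without J1, and 2 higher without J1 replicate 1. Called genes made up 32% of that list, against 25.1% of all genes. Of 47 genes of Wnt signalling, 27.7% were called, a share near that of all genes, with 8 higher and 5 lower. These counts were 5 and 2 without J1, 4 and 2 without R1, and the lower count was 9 without Wt1. The secreted antagonist Sfrp1 was higher in EpiSCs (2.53 ± 0.39, adjusted p = 0.0029). Cdx1, a homeobox target of Wnt, was lower (-5.33 ± 0.40, adjusted p = 0.000138) and had -2.79 at E5.5, -0.57 at E6.5 and 6.68 at E7.5 in embryos. Its E7.5 level was above that of every cell line.

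**Figure D4:**
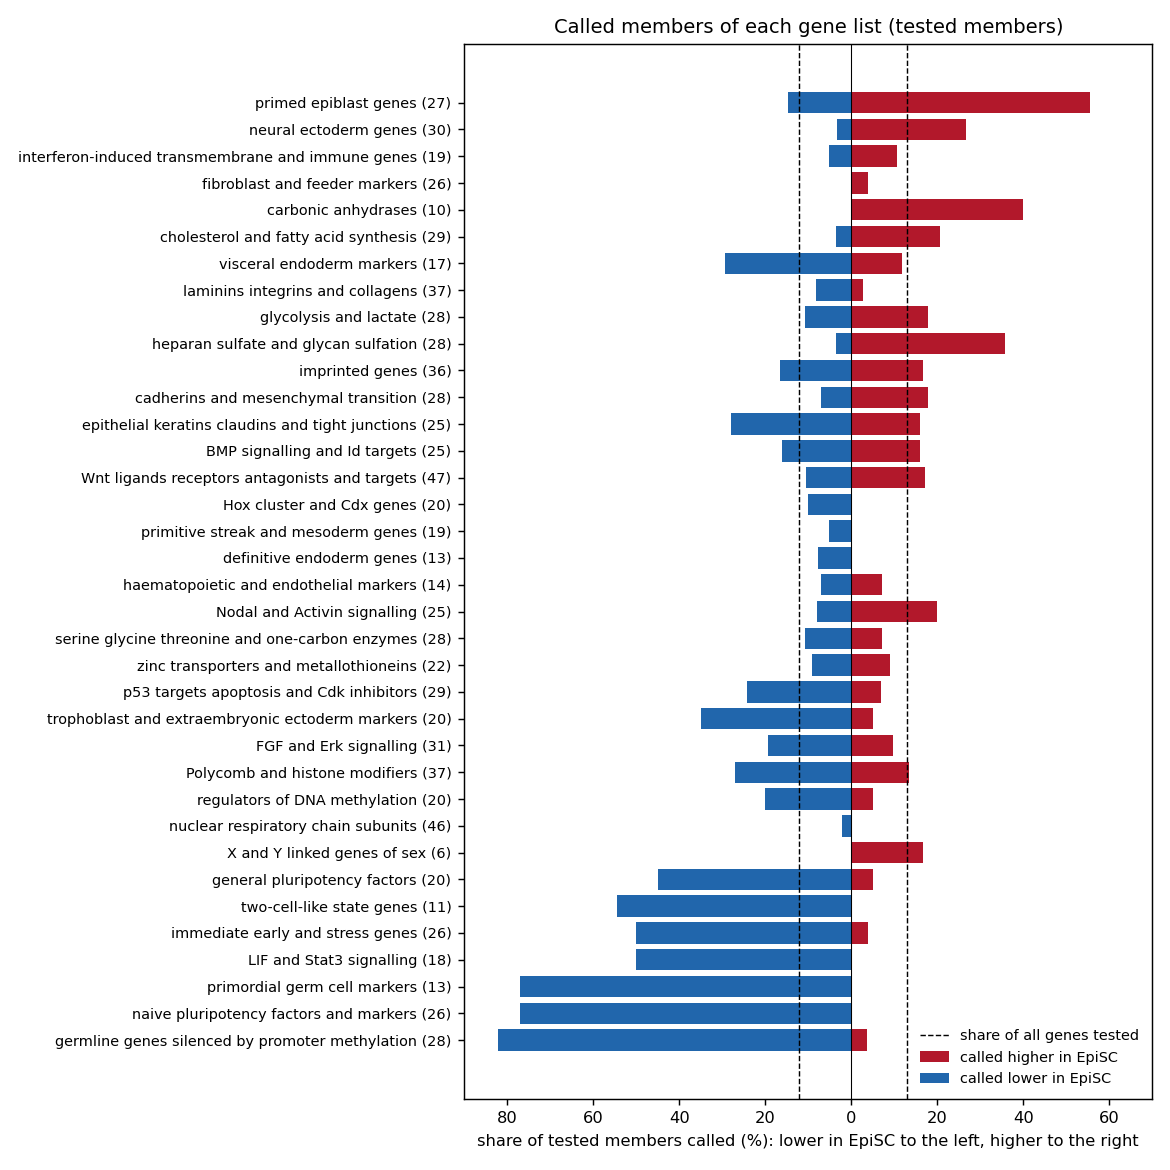
Share of the tested members of each of 36 gene lists called higher (red, right) or lower (blue, left) in EpiSCs than in mESCs, with the number tested in brackets and the lists ordered by median difference. Dashed lines mark the shares over all genes tested, 12.9% higher and 12.2% lower; the germline, naive, primordial germ cell, LIF, immediate early and two-cell-like lists stand far to the left, and the primed list to the right.

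Slc39a8 and Car14 are in the list of primed epiblast genes and were known from earlier results of these data, so they lend its count no support. Of 27 primed epiblast genes, 15 were higher in EpiSCs and 4 lower, against 12.9% and 12.2% of all genes. The median difference was 1.48. The higher count was 8 without R1, and the lower count was 2 without J1 and 2 without R1. Sox11, a Sox factor of the early neural plate, differed by 2.74 ± 0.35 (adjusted p = 0.00149). Keratin 18 (Krt18), an intermediate filament of simple epithelia, differed by 2.96 ± 0.54, with an adjusted p of 0.0573 without R1. Grhl3, an epithelial transcription factor of the list, went the other way (-3.46 ± 0.53, adjusted p = 0.00288). Of the 15 higher genes, 11 (73.3%) lay nearer to the EpiSC mean at all 3 embryo stages and 3 (20%) nearer to the mESC mean at all 3. Over all genes called higher these shares were 43.4% and 17.7%. Car14 was nearer to EpiSCs at all 3 stages, at 4.91 at E5.5, 5.11 at E6.5 and 4.85 at E7.5. Slc39a8 was not, at -0.73 at E5.5, 0.63 at E6.5 and 0.69 at E7.5 against 3.77 in EpiSCs and -1.75 in mESCs, and in J1 with 2i it was at -5.60.

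Against 12.9% higher and 12.2% lower over all genes, 8 of 30 neural genes were called higher and 1 lower. This count rests on few lines: it was 16 without 129C1, 5 without 129Ba2, 3 without J1 and 2 without R1. Nestin (Nes), an intermediate filament of neural progenitors, was at 3.75 to 4.08, with a median of 3.87, on the 10 EpiSC arrays, against 1.78 and 1.80 in J1 and 1.62 and 1.78 in R1 (difference 2.14 ± 0.15, adjusted p = 9.74e-05). The embryo means of 1.79 at E5.5, 1.86 at E6.5 and 2.58 at E7.5 were nearer to mESCs. Fabp7, a fatty acid binding protein of radial glia, differed by 4.33 ± 0.98 but was at -1.20 in 129C1 against 1.58 to 2.80 in the other EpiSC lines. Its call was lost without J1 or R1 (adjusted p = 0.0759 and 0.0955). Of streak and endoderm genes few were called: 18 of 19 streak genes and 12 of 13 endoderm genes did not pass, and 1 of each was lower. Without Wt1 3 streak genes were lower and without J1 none, and the endoderm call was lost without any 1 of 129Ba1, 129Ba2, BNa17, J1 or R1. The EpiSC lines themselves were far apart in these lists. The endoderm median was 1.11 in Wt1 and 1.85 in 129C1 and -3.75, -4.41 and -4.06 in 129Ba1, 129Ba2 and BNa17, against -0.50 in J1 and -3.19 in R1. The streak median was 0.14 in Wt1 and -3.68 to -1.81 in the other 4 lines, against -2.19 in J1 and -2.64 in R1.

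Of 28 genes of heparan sulfate and glycan sulfation, 10 were higher and 1 lower, against 12.9% higher over all genes, and 6 were higher without J1. Chst1, which puts sulfate on galactose of keratan sulfate, was at 3.85 to 6.16, with a median of 5.71, on the 10 EpiSC arrays, against 0.38 and 0.10 in J1 and 0.37 and 0.18 in R1, a difference of 5.16 ± 0.54 (adjusted p = 0.000647). Both Wt1 arrays, at 4.14 and 3.85, were the lowest of the EpiSC arrays. Chst15, which adds a second sulfate to chondroitin sulfate, differed by 3.20 ± 0.29 (adjusted p = 0.000313). Fut1, a fucosyltransferase, was not well above background on any mESC array and was at least 9.86-fold higher. Its level was -1.52 and -0.74 in the original-protocol lines and 0.60, 1.76 and 0.96 in the Wnt inhibitor lines 129Ba1, 129Ba2 and BNa17. Car14 and Slc39a8 were known from earlier results of these data, so they lend the counts of the following lists no support. Of 10 carbonic anhydrases 4 were higher, Car14 among them, and 6 did not pass, against 12.9% higher over all genes. Fewer were higher without R1. Slc39a8 was 1 of 2 higher among 22 zinc transporters and metallothioneins, and 2 were lower (4 without Wt1). Called genes made up 18.2% of the zinc list, against 25.1% of all genes. Without J1 or R1, 1 was higher and both lower calls were lost.

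Other large rises among genes well above background on all arrays were those of Igfbp5 (4.20 ± 0.56), which binds insulin-like growth factors, Pkdcc (4.08 ± 0.44), a secreted tyrosine kinase, Cd59a (4.06 ± 0.36), an inhibitor of complement, Cmtm8 (3.85 ± 0.28) and the kinase Stk39 (3.51 ± 0.30). Their levels in embryos were not alike. Cmtm8 was at 3.03 at E5.5, 3.52 at E6.5 and 3.29 at E7.5, near its EpiSC mean of 3.32, while Cd59a was at -0.28 at E5.5, -0.18 at E6.5 and -0.76 at E7.5, near its mESC mean of -1.01 and not its EpiSC mean of 3.05. Of the 12 largest rises, 5 (41.7%) lay nearer to EpiSCs at all 3 stages and 4 (33.3%) nearer to mESCs at all 3. Over all genes called higher these shares were 43.4% and 17.7%. Of the 12 largest falls the counts were 3 (25%) and 1 (8.33%), against 53.9% and 10.6% of all genes called lower. Genes with no mESC array well above background included Stxbp6, a regulator of vesicle fusion (at least 13.4-fold higher), and Maml3, a coactivator of Notch (at least 9.96-fold higher).

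Slc16a3, the transporter that exports lactate, was at 6.62 to 7.79, with a median of 7.10, on the 10 EpiSC arrays, against 4.40 and 4.40 in J1 and 4.44 and 4.05 in R1, a difference of 2.83 ± 0.24 (adjusted p = 0.000258). Embryo means were 7.49 at E5.5, 7.41 at E6.5 and 6.89 at E7.5, within the range of the EpiSC arrays. Pdk1, which restrains entry of pyruvate into the citric acid cycle, was lower (-1.87 ± 0.30, adjusted p = 0.00334). Of 28 glycolysis genes 5 were higher and 3 lower, and this share of 28.6% was near the 25.1% of all genes. Without J1, 2 were higher. Without R1, 2 were higher and 1 lower. Gapdh differed by 0.28 ± 0.18 (adjusted p = 0.26).

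Nuclear genes of the respiratory chain showed a small shift below the 2-fold minimum. Of 46 tested, 39 had a lower mean in EpiSCs, against 7256 of all 14436 genes. The median difference was -0.48, or -0.25 with quantile normalization and -0.70 with median scaling. Relative to the median of all genes under the same scaling it was -0.47, -0.34 and -0.47. Without a fold minimum 16 of the 46 were lower, against 19.7% of all genes. The only call at 2-fold was Cox8c, a subunit form of the testis, at least 6.27-fold lower. In one-carbon metabolism, beside Tdh, the serine hydroxymethyltransferase Shmt1 was lower (-1.73 ± 0.20) and the mitochondrial folate enzyme Mthfd2l higher (3.03 ± 0.40), at adjusted p = 0.00103 and 0.00166. Of 29 genes of sterol and fatty acid synthesis, 6 were higher and 1 lower, with 3 higher without R1. The share called, 24.1%, was near the 25.1% of all genes. The desaturases Scd1 and Scd2 were among the higher ones (1.63 ± 0.26 and 1.22 ± 0.19, adjusted p = 0.00353 and 0.00333).

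Imprinted genes, expressed from 1 parental allele, were called in both directions: of 36 tested, 6 were higher and 6 lower, against 12.9% and 12.2% of all genes. The higher count was 3 without J1 and 3 without R1. Grb10, an adaptor that restrains insulin and growth factor receptors, was at 3.14 to 4.28, with a median of 3.37, on the 10 EpiSC arrays, against -0.33 and -0.13 in J1 and -0.21 and -0.40 in R1, a difference of 3.74 ± 0.30 (adjusted p = 0.00019). Line 129C1 had the 2 highest EpiSC arrays. Ddc, the neighbour of Grb10 in the same imprinted cluster, was lower (-2.28 ± 0.35, adjusted p = 0.00287). Sgce, which encodes a sarcoglycan, was higher (2.30 ± 0.20), while Gab1, Sfmbt2 and Jade1, known for methylation-independent imprinting in extraembryonic cells, were lower, with differences of -5.06 ± 0.26, -3.55 ± 0.57 and -2.90 ± 0.31. Expression from each allele was not measured.

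Of 26 immediate early and stress genes, 13 were lower in EpiSCs and 1 higher (median -1.25, or -0.82 with normexp). Over all genes 12.2% were lower and 12.9% higher. Egr1, induced within minutes by growth factors, was at -0.11 to 2.04, with a median of 1.05, on the 10 EpiSC arrays, against 4.53 and 4.85 in J1 and 5.05 and 4.74 in R1. Fos, Fosb and Egr2 followed with -3.52 ± 0.28, -4.11 ± 0.33 and -4.21 ± 0.69, and the small heat shock protein Hspb1 with -3.41 ± 0.30. How long cells were handled before lysis is not stated for either kind of line, and its part in these values was not tested. Of 29 p53 targets and cell cycle inhibitors, 7 were lower and 2 higher, with 3 lower and 1 higher without J1, and 2 lower and none higher without R1. Called genes made up 31% of this list, against 25.1% of all genes. Cyclin E1 (Ccne1) differed by -1.57 ± 0.22 (adjusted p = 0.00198).

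The 5 EpiSC lines were not alike. Among the 10592 genes well above background on all 14 arrays, Wt1 was the line farthest from the EpiSC median for 34.1% and 129Ba2 for 6.78%. Interferon-induced genes were high in Wt1. Isg15, a ubiquitin-like protein, was at 7.63 and 6.56 on its 2 arrays, against -0.17 to 2.83 as means of the other EpiSC lines and 0.97 and 1.17 in J1. Bst2, which tethers virus particles, was at 7.29 and 6.48 in Wt1 and 4.16 to 4.68 in the others. The list median was 4.06 in Wt1 and 0.02 to 0.58 in the other 4 lines, against 1.07 in J1 and 1.01 in R1. H2-K1, a class I histocompatibility gene, was higher in all 5 EpiSC lines than in mESCs (4.23 to 5.68, with a median of 4.72, on the 10 EpiSC arrays, against 2.87 and 2.99 in J1 and 2.45 and 1.99 in R1; adjusted p = 0.00284). Other genes were low in Wt1. Cldn7, a tight junction claudin, was at -0.55 and -0.66 in Wt1 and 4.03 to 4.75 in the others, and Cdkn1c, an imprinted inhibitor of the cell cycle, at -0.87 and -0.81 in Wt1 and 3.54 to 4.66 in the others. Neither gene passed the test over 5 lines (adjusted p = 0.713 and 0.794), and both did without Wt1 (adjusted p = 0.00346 and 0.0225). The Wt1 arrays lay on another slide than the other 4 lines, together with line 129C1 grown with the Wnt inhibitor IWP2. On that slide 129C1 with IWP2 had Isg15 at 1.01 and -0.08, Bst2 at 4.67 and 4.69, Cldn7 at 4.57 and 4.68 and Cdkn1c at 3.63 and 3.71.

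**Figure D5:**
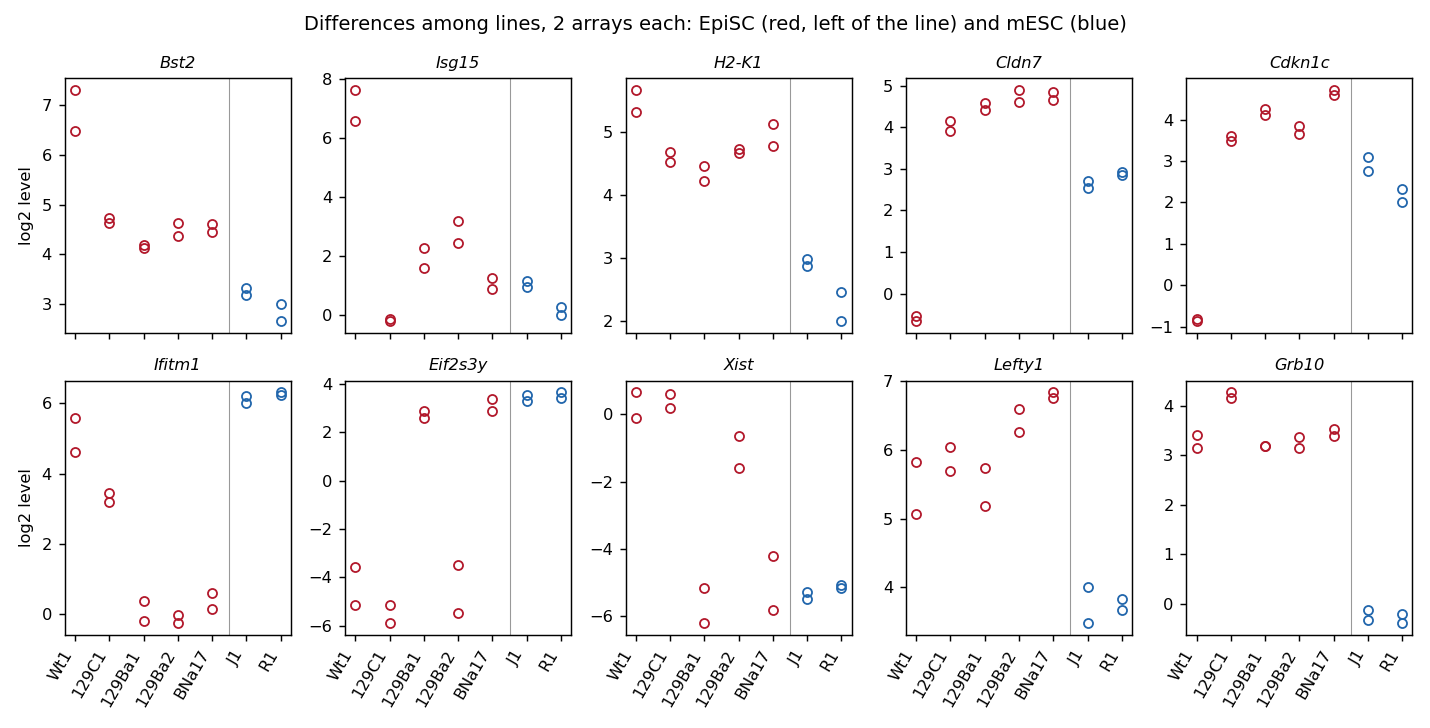
Log2 level of 10 genes on both arrays of each EpiSC line (red, left) and mESC line (blue, right). Wt1 is high for Bst2 and Isg15 and low for Cldn7 and Cdkn1c, Ifitm1 is high in the original-protocol lines Wt1 and 129C1 among the EpiSC lines, Eif2s3y and Xist divide the EpiSC lines in opposite ways, and H2-K1, Lefty1 and Grb10 are higher in all EpiSC lines than in both mESC lines.

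The 2 ways of establishing EpiSCs separated 402 genes (2.78%), of which 62 were also called between EpiSCs and mESCs (1.71% of 3619). Ifitm1, an interferon-induced transmembrane protein, was at 5.09 and 3.32 in the original-protocol lines and -0.13 to 0.37 in the Wnt inhibitor lines, against 6.10 in J1 and 6.28 in R1. Its call between EpiSCs and mESCs was lost in 14 of 36 other settings, quantile normalization among them (adjusted p = 0.073). Tfap2c, a factor of naive and trophoblast cells, and Urah, an enzyme of urate breakdown, were lower in all EpiSC lines than in mESCs, and more so in the Wnt inhibitor lines. For Tfap2c the means were 0.78 and -0.18 in the original-protocol lines and -2.19 to -1.71 in the Wnt inhibitor lines, against 4.26 and 4.80 in J1 and R1. The count of 402 was 90 without 129Ba2 and 929 without 129C1.

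Sex chromosome genes divided the lines in another way. Xist, the RNA that silences an X chromosome in female cells, was well above background in Wt1, 129C1 and 129Ba2, at -0.12 and 0.66 in Wt1, 0.20 and 0.62 in 129C1 and -0.65 and -1.60 in 129Ba2, and not in 129Ba1, BNa17, J1 or R1. The Y-linked Eif2s3y was at 2.61 and 2.86 in 129Ba1 and 3.36 and 2.88 in BNa17, against 3.55 and 3.28 in J1 and 3.66 and 3.43 in R1, and at -5.16 and -3.59 in Wt1. Lines with Xist were thus found among the EpiSC lines and not among the mESC lines, and the part of this in X-linked genes such as Rhox6 was not tested.

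Over all called genes, more lay on the EpiSC side at each later embryo stage. Of 1759 genes called lower, 62.5%, 73.1% and 81.6% lay nearer to the EpiSC mean at E5.5, E6.5 and E7.5, and of 1860 called higher 56.4%, 65.5% and 69.4%. At all 3 stages 948 of the lower and 808 of the higher genes were on the EpiSC side, and 186 and 329 on the mESC side. In J1 with 2i, 14.3% of the lower and 20.6% of the higher genes were nearer to EpiSCs. These positions use the same EpiSC and mESC means that made the calls and are a description without a test. The list of visceral endoderm markers also changed with stage, with medians of 2.33 at E5.5, 1.43 at E6.5 and -1.86 at E7.5. The part of other tissue in the stage shares was not tested.

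Markers of other cell types are given for the whole lists, as summed levels in multiples of the 75th percentile signal. Fibroblast and feeder markers summed to 539 to 1374 on the EpiSC arrays and 474 to 579 on the mESC arrays, with 23 and 25 of 26 well above background on all arrays, and to 95.4 to 133 in embryos. Line 129Ba1 had the highest sums, 1224 to 1374. In the fit 1 of 26 was higher in EpiSCs and 25 did not pass, against 12.9% higher over all genes. The higher count was 3 without 129C1 and 2 without Wt1 or BNa17, and the call was lost without 129Ba2, J1 or R1. The part of feeder RNA in genes that fibroblasts share, such as Igfbp5, was not tested. Visceral endoderm markers summed to 52 to 137 in EpiSCs and 345 to 441 in mESCs. In embryos they summed to 100 to 369 at E5.5, 124 to 206 at E6.5 and 63.3 to 69.3 at E7.5. At these stages 22, 23 and 10 of 23 were well above background on all arrays. Trophoblast markers summed to 17.5 to 36.9 in EpiSCs and 167 to 233 in mESCs. Both lists hold genes that mESCs are known to express, such as Rhox5 (-7.85 ± 0.25) in the first and Esrrb in the second. Haematopoietic and endothelial markers summed to 26.6 to 59.5 in EpiSCs and 19 to 26.2 in mESCs. In the fit 1 of 14 was higher and 1 lower, against 12.9% and 12.2% of all genes. Primordial germ cell markers summed to 83.6 to 257 in EpiSCs and 211 to 228 in mESCs. The highest EpiSC sums, 222 to 257, were those of Wt1.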

How the data were processed

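Total RNA of each sample was labelled with Cy3 and hybridised to 1 single-colour Agilent array, per the labels' protocols. The deposited scanner files give the intensity of each spot after background subtraction and spatial detrending within the array, per the file headers; the software was Agilent Feature Extraction 10.5.1.1, per the submitters' processing notes. The authors' deposited table holds log2 values of the same arrays. It matched scanner values scaled to the 75th percentile and centred on each probe (r of at least 0.9999 with the own array), and was used as an alternative.

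The log2 of the processed intensity minus that of the array's 75th percentile was used. Control spots and 168 probes with an outlier flag were left out, and 27235 of 55681 probes were named through RefSeq accessions, giving 20660 genes. For a gene with several probes the brightest was used, with the mean of all probes as an alternative. A gene was tested if 1 or more of the 7 lines had its probe well above background on each of their 2 arrays (14436 genes), by line means, with limma 3.58.1 in R 4.3.3 (lmFit and eBayes, Benjamini-Hochberg adjusted p under 0.05 and at least 2-fold), after the fit had been tested on simulated data. The number of arrays limits the precision, and p-values measure the spread between lines.

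Named genes are, per list, those called with the largest differences, the largest bounds, rises, falls and line spreads, the genes that differ most between kinds of EpiSC line, and the markers of each cell type. Klf5, Sycp3 and Isg15 were chosen after their values were seen. The members and the 36 gene lists were chosen with earlier results of these data known. Alternatives were normexp correction (offset 50, on spot medians, since mean spot signals were not used here), quantile and median scaling, other filters and probe rules, random blocks and leaving out each array or line. Promoter windows are from RefSeq, build GRCm38.p6.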

Additional observations from a re-analysis of the deposited data

Results flagged for a closer look

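Dixon's test on the line means flags about 1 of 20 groups by chance alone. In 10 of the 106 tested genes named above, it set the mean level of 1 of the 5 EpiSC lines far from the other 4. In Wt1 these were Bst2 at 6.89, Bmp4 at 1.97 and Nr0b1 at -5.41, and Cdkn1c at -0.84, Cldn7 at -0.60 and Mthfd2l at 1.52. In 129C1 they were Grb10 at 4.22, Fgf15 at 1.00 and Maml3 at 0.95, and in 129Ba1 Cmtm8 at 2.71. Wt1 gave 6 of the 10. Genes were named partly for their spread between lines, so the flags partly restate that choice.

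In 7 genes the distance from mESCs differed between the Wnt inhibitor lines and the original-protocol lines, by the test of that difference across all genes. Fut1 was higher in the Wnt inhibitor lines by 2.23. The others were lower in them, with differences of -4.10 for Ifitm1, -2.45 for Urah, -2.31 for Tfap2c, -1.81 for Tfcp2l1, -1.62 for Sfmbt2 and -1.40 for Grhl3. Some of these genes were named for their difference between the kinds of EpiSC line, so for them the flag restates that choice. The cause of these differences was not tested.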

How the results depend on the processing

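The count of 3619 genes called between EpiSC and mESC lines was 1969 with normexp background correction, 2160 over genes well above background on all 14 arrays, and 1960 to 3722 when an array or a line was left out; where J1 or R1 was left out, the lone mESC line was assumed to vary like the EpiSC lines. The count of 402 between the kinds of EpiSC line was 265 without a filter on dim probes, 246 over genes well above background on all 14 arrays, 926 on single arrays with line as a random block, 1179 with slide as a random block, and 90 to 929 when an array or a line was left out. Median scaling called 568, of which 62.5% were higher in the Wnt inhibitor lines, against 41% of the 402. Of 106 named genes tested, 98 were called, and none of these turned direction under any setting in which it was tested. Called genes lost without R1 numbered 5 and without J1 numbered 4. Among genes not called, Cdkn1c turned to -0.10 with slide as a random block and to -1.19 with original-protocol lines only, and Cldn7 to -1.04 with those lines. The cause of these changes was not tested.

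Replicate numbers did not pair the arrays: over 21 pairs of lines the correlation of deviations ran from -0.27 to 0.18. With replicate number added as a block to the fit on single arrays, 3822 genes were called between EpiSC and mESC lines, against 3840 without it, and 894 between the kinds of EpiSC line. Several lists with a count of 1 in a direction changed in that count when single lines were left out. With 2 mESC lines and no shared slide, no fit can separate kind of line from slide or scan. Signals near background limit dim genes: folds are bounds only where 1 kind of line had no array well above background, and other large falls and list medians rest partly on levels at background.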
